A study of Homo sapiens with 10 samples.

Results

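Mitochondrial ribosome genes were compared on 10 Affymetrix HG-U133 Plus 2.0 arrays of RWPE-1, a human prostate epithelial cell line that was immortalised and does not form tumours. The members were the probe sets annotated to exactly 1 gene whose symbol starts with MRPL or MRPS followed by a digit, which gave 142 of the 54675 probe sets. They represent 77 of the 19775 genes named on the array in this way. MRPL symbols name proteins of the large subunit (83 probe sets, 48 genes) and MRPS symbols proteins of the small subunit (57 probe sets, 27 genes). The other 2 members were the antisense gene MRPL20-AS1 and the pseudogene MRPL45P2. Every clone carried the biotin ligase BirA, delivered by an MSCV retrovirus and kept by selection. The groups were BirA with the ETS transcription factor ERG (3 arrays), BirA with the ETS factor ETV1 (4 arrays) and BirA alone, called control (3 arrays). All cells grew under normal conditions. Biological replicates are put at 3 in the submitters' design text, although 4 arrays carry the ETV1 label. The submitters describe stable clones, and nothing says that the arrays of a group came from separately derived clones, so p-values measure only how these arrays vary, which may in part be technical.

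The mitochondrial ribosome translates the few messenger RNAs of the mitochondrial genome, all of which encode subunits of the respiratory chain and ATP synthase. Its protein parts are encoded in the nucleus, made in the cytosol and imported, so that supplying the particle needs the joint expression of many nuclear genes. The small subunit binds the messenger RNA and holds the decoding site, and the large subunit forms peptide bonds and feeds the new chain to the inner membrane. Promoters of many of these genes are known to lack a TATA box and to hold sites for ETS factors such as GABPA, for NRF1 and for YY1. ETV1 and ERG bind the same core letters as GABPA.

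Promoter sequences from RefSeq (GRCh38.p14) were matched by symbol for 67 of the 75 large- and small-subunit genes, each as 300 bases, 250 before and 50 after the start of the gene. They are shown for 3 members as examples, as the 250 bases before the start, 5′ to 3′ on the strand of the gene. MRPL12 was higher in ETV1 cells than in control, while MRPL51, with the most negative fold change of any member there, and MRPS34 were lower. Capitals mark the ETS letters CCGGAAG, or CTTCCGG where they lie on the opposite strand.
MRPL12, chr17:81703117-81703366, plus strand: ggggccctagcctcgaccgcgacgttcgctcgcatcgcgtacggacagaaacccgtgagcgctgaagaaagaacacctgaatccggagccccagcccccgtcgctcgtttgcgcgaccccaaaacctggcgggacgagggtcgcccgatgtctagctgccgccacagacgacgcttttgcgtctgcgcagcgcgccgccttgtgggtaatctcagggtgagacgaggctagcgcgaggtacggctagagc
MRPL51, chr12:6493263-6493512, minus strand: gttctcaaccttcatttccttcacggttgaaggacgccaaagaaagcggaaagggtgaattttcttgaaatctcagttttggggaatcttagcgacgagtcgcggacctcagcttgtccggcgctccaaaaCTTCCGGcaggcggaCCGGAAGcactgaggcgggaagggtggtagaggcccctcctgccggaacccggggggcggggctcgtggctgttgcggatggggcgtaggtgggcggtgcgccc
MRPS34, chr16:1773135-1773384, minus strand: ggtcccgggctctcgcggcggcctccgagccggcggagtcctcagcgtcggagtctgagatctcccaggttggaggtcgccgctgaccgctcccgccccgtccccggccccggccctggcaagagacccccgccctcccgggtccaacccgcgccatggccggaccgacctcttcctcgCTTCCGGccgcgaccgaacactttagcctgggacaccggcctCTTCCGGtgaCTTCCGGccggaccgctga
The MRPL51 stretch holds the ETS letters 2 times, and the MRPS34 stretch holds them 3 times. The MRPL12 stretch holds none of the letters of the 3 motifs searched. These 3 do not stand for the other members. The promoters of MRPL1, MRPS35, MRPL22 and MRPL37 held no ETS letters, and each of these genes fell further in ETV1 cells than MRPS34.

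Across all 67 promoters, on both strands, the ETS letters CCGGAAG stood in 28 (41.8%), compared with 14.2% of the 15843 protein-coding promoters of the same length. They were in 16 of 41 large-subunit promoters (39.0%) and in 12 of 26 small-subunit promoters (46.2%). The YY1 letters AAGATGGCG stood in 12 of the 67 (17.9%), compared with 2.74% of all promoters. The NRF1 letters, GCGCA followed by any base and then GCGC, stood in 8 (11.9%), compared with 8.58% of all. In 4 member promoters both ETS and YY1 letters were found, in no case overlapping, and 26 held none of the 3. These counts describe letters in a window and say nothing of binding in these cells.

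Of the 142 member probe sets, 131 lay above their array's median on at least 3 arrays and were tested, 78 of the large and 52 of the small subunit together with MRPL20-AS1. All 75 subunit genes had at least 1 tested probe set. Among the tested, 5 passed that filter through 1 group only and so had to differ: 2 probe sets of MRPL41 and 1 each of MRPL55, MRPS25 and MRPL20-AS1. Values are the probe set intensities as deposited, on a linear scale. Fold changes are on the scale of log2(intensity + 16), which understates the change of dim probe sets, and a difference passed where its limma p, adjusted over all 25969 tested probe sets, was below 0.05. Intensities of different probe sets were not compared with each other, because probes differ in brightness. An array measures RNA from a whole culture, so fewer cells expressing a gene and less RNA per cell cannot be told apart.

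Arrays labelled ERG differed as a whole from the other 7. Their median intensity was 50.7 ± 2.09 (SD, n = 3), against 73.8 ± 2.01 (n = 4) on ETV1 and 72.5 ± 1.05 (n = 3) on control arrays, while their 99th percentile was higher, at 7900 ± 138, against 4630 ± 272 on ETV1 and 5300 ± 484 on control arrays. The ratio of 3′ to 5′ probe sets of a gene rises when RNA is degraded or labelled less far. For ACTB it was 2.94 ± 0.171 on arrays labelled ERG, 1.26 ± 0.0288 on ETV1 and 1.38 ± 0.0243 on control arrays. For GAPDH it was 1 ± 0.0516 on arrays labelled ERG, 1.02 ± 0.0253 on ETV1 and 0.916 ± 0.0202 on control arrays. GAPDH values thus overlapped between arrays labelled ERG (0.946 to 1.04) and ETV1 arrays (0.994 to 1.05), unlike those of ACTB. ERG itself did not settle the label: 1 probe set (211626_x_at) averaged 36.5 there and 9.04 on control arrays, and another (222079_at) averaged 9.43 on arrays labelled ERG and 186 on control arrays. ETV1 (217053_x_at) averaged 1320 in ETV1 cells and 88.1 in control. The spiked-in cre control read 23100 ± 1260 on the arrays labelled ERG, 12200 ± 562 on ETV1 and 11700 ± 363 on control arrays. All 4 basal and all 4 luminal prostate epithelium markers lay above the array median on every array. Summed basal intensities were 22490 to 23760 on arrays labelled ERG, 19530 to 21420 on ETV1 and 15340 to 16670 on control arrays, and most of each sum came from KRT5 and KRT14. Of the 6 tested basal probe sets, 1 rose and 3 fell on arrays labelled ERG against control, while 4 rose and none fell in ETV1 cells. KRT5 read 11100 to 11407 on arrays labelled ERG, 5477 to 6479 on ETV1 and 5085 to 5436 on control arrays. Luminal sums were 12820 to 13010 on arrays labelled ERG, 7247 to 9788 on ETV1 and 9498 to 11360 on control arrays. Of the 5 tested luminal probe sets, 2 rose and 2 fell on arrays labelled ERG against control, while 1 rose and 1 fell in ETV1 cells. KLK3 read 130 to 131 on arrays labelled ERG, 526 to 622 on ETV1 and 489 to 656 on control arrays. No leukocyte marker of 4 lay above the median on every array, and 2 of 5 fibroblast and 1 of 5 endothelial markers did. Endothelial sums were 196.5 to 226.8 on arrays labelled ERG, 1348 to 1524 on ETV1 and 1482 to 1660 on control arrays. Most of each endothelial sum came from a single PECAM1 probe set, and CDH5 and TEK lay above the median on no array. Fibroblast sums were 219.6 to 308.4 on arrays labelled ERG, 1075 to 1132 on ETV1 and 922 to 1204 on control arrays. A single COL1A1 probe set was the largest part of each fibroblast sum, and COL1A2 and LUM lay above the median on no array. Leukocyte sums were 104.9 to 152.2 on arrays labelled ERG, 288.4 to 332.2 on ETV1 and 266 to 348 on control arrays. Results for the arrays labelled ERG are therefore given as deposited and after quantile normalization, which gives every array the same distribution. The part of these array differences in the results below was not tested.

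Seen as a group, mitochondrial ribosome probe sets were bright, with the median member in the upper part of each array. The median large-subunit probe set read 1793, 1888 and 1556 on arrays labelled ERG, 747.4, 760.3, 740.1 and 686.8 on ETV1 arrays, and 1220, 1029 and 858.2 on control arrays. The median small-subunit probe set read 1691, 1881 and 1674 on arrays labelled ERG, 712.6, 742.9, 702.9 and 642.3 on ETV1 arrays, and 1009, 887.9 and 734.9 on control arrays. In both subunits every ETV1 array lay below every control array except that small-subunit control C (734.9) fell below ETV1 B (742.9), and every array labelled ERG lay above them all. The control arrays spread more than the ETV1 arrays. As a rank within its own array, the median large-subunit probe set stood at percentile 93.4 ± 0.839 on arrays labelled ERG, 89.7 ± 0.275 on ETV1 and 92.3 ± 0.3 on control arrays. For the small subunit the rank was 93.4 ± 0.5 on arrays labelled ERG, 89.1 ± 0.424 on ETV1 and 90.9 ± 0.153 on control arrays.

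**Figure D1:**
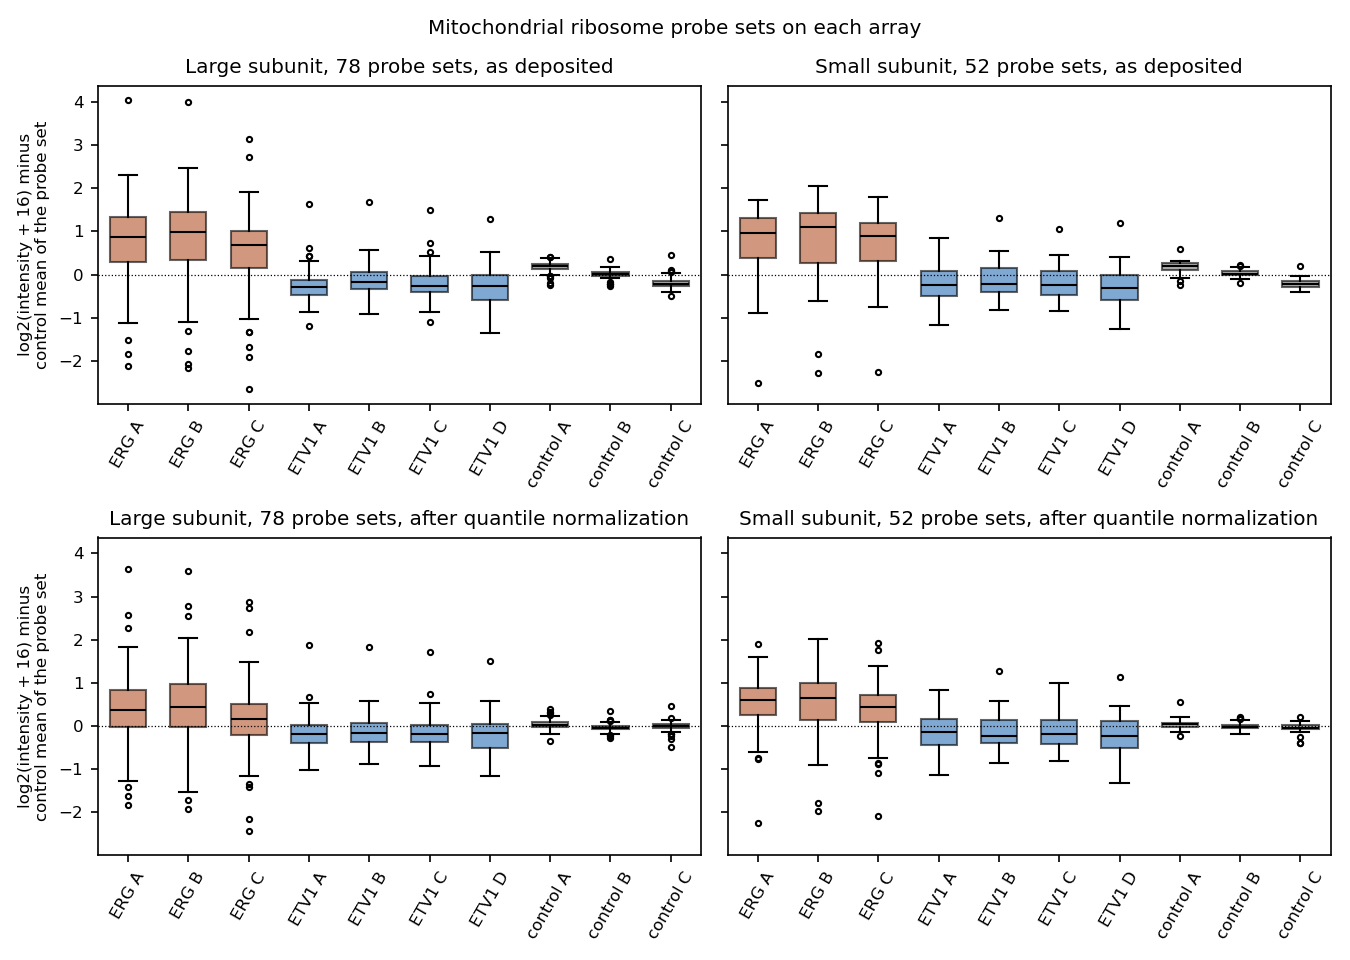
Box plots of log2(intensity + 16) minus the control mean of each tested member probe set, by array, for arrays labelled ERG, ETV1 and control arrays, large and small subunit apart, as deposited (top) and after quantile normalization (bottom). Lines in the boxes are medians: those of the 4 ETV1 arrays lie below 0 in every panel, and as deposited the 3 control medians spread from 0.19 to -0.22 in the large subunit.

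In ETV1 cells compared with control, mitochondrial ribosome genes that changed were mostly lower. Of 131 tested probe sets, 4 rose and 38 fell, compared with 10.4% higher and 13.1% lower of all 25969 tested probe sets. The median log2 fold change was -0.28 over the large subunit and -0.21 over the small subunit, beside -0.03 over all tested probe sets. Brightness was split at a mean of 500 over all arrays, after the values were seen. Of the 94 brighter members, 1 rose and 35 (37.2%) fell, with a median of -0.32. Among all tested probe sets that bright, 9.75% rose and 22.7% fell, with a median of -0.14. Of the 37 dimmer members, 3 rose and 3 fell (8.11% each), with a median of -0.01. Among all tested probe sets that dim, 10.6% rose and 8.82% fell. By gene, 2 of 48 large-subunit genes rose, 18 fell and 28 had no passing probe set. In the small subunit 1 of 27 rose, 15 fell and 11 had none. Over all 14116 genes tested, 13.8% had a higher and 18.5% a lower probe set. No member gene had passing probe sets in opposite directions. All 5 member genes with at least 2 passing probe sets had them in 1 direction, as did 1101 of 1147 such genes in all (96%).

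Array quality measures also differed between these groups. The 18S ribosomal RNA 5′ probe set read 276 to 874 on ETV1 arrays and 79.4 to 159 on control arrays. The GAPDH 3′ to 5′ ratio was 0.994 to 1.05 on ETV1 arrays and 0.893 to 0.931 on control arrays, and that of ACTB was 1.24 to 1.3 on ETV1 and 1.35 to 1.4 on control arrays. None of the 3 overlapped between the groups, and their part in the result was not tested.

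The fall was small for most members, with 1 probe set past a 2-fold fall and 2 past a 2-fold rise. It rests in part on single control arrays. Without control A the number of lower probe sets was 14, without control B 19, without ETV1 A or ETV1 C 25, and without control C 52. Without ERG C, which shares the estimate of spread, 7 rather than 4 were higher. Over the left-out arrays the large-subunit median ran from -0.37 to -0.17. After quantile normalization 10 rose and 46 fell, with 37 of the 38 lower calls kept, and the medians were -0.19 for both subunits. Of all tested probe sets 14.6% were then higher and 16.7% lower, with a median of -0.02. After this normalization the 3 control arrays stood at 0.03, -0.03 and 0.01 around their mean in the median large-subunit probe set, and the 4 ETV1 arrays stood at -0.18, -0.17, -0.18 and -0.15, on the log2 scale.

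Among large-subunit genes the largest exception in direction was MRPL12 (203931_s_at, chromosome 17). It encodes the stalk protein that recruits translation factors and is also known to bind the mitochondrial RNA polymerase. It read 671, 690, 610 and 519 on the ETV1 arrays, against 200, 218 and 197 on the control arrays. The 2 groups did not overlap. The log2 fold change was 1.52 ± 0.19 (SE; limma adjusted p = 3.0e-05), the largest rise of any member, and it lay between 1.34 and 1.73 under all 22 alternatives run. A second MRPL12 probe set (229165_at) was near the floor of the array and was not tested. MRPL10 (224671_at, chromosome 17), which anchors MRPL12 at the base of the stalk, read 648, 693, 627 and 683 on ETV1 arrays and 969, 920 and 610 on control arrays, and did not pass (log2 fold change -0.30, limma adjusted p = 0.19). As deposited, MRPL30 (224173_s_at, chromosome 2) was the other large-subunit rise. It read 200, 192, 215 and 186 on ETV1 arrays and 125, 130 and 118 on control arrays (log2 fold change 0.61 ± 0.12, limma adjusted p = 0.0016). The other 4 tested MRPL30 probe sets did not pass, with log2 fold changes of -0.18 to 0.02, so the rise belongs to 1 of 5. After quantile normalization MRPL32 (0.33), MRPL36 (0.37) and MRPL58 (0.46) also rose (limma adjusted p = 0.025, 0.044 and 0.033).

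MRPL51 (223086_x_at, chromosome 12), a large-subunit protein without a bacterial counterpart, had the largest fall. It read 1440, 1756, 1555 and 1296 on ETV1 arrays, against 3736, 3361 and 2923 on control arrays, a log2 fold change of -1.14 ± 0.14 (limma adjusted p = 2.4e-05). The groups did not overlap, and the fall held under all 22 alternatives, at -1.23 to -0.99. MRPL1 (223154_at, chromosome 4), the protein of the mobile stalk beside the exit site of the transfer RNA, read 834, 859, 827 and 691 on ETV1 arrays and 1663, 1629 and 1309 on control arrays (log2 fold change -0.92 ± 0.15, limma adjusted p = 0.00031). MRPL48 (218281_at, chromosome 11) read 649, 733, 651 and 747 on ETV1 arrays and 1404, 1240 and 992 on control arrays, and MRPL43 (224332_s_at, chromosome 10) read 756, 810, 773 and 716 on ETV1 arrays and 1599, 1292 and 1103 on control arrays. In both, every ETV1 array was below every control array, and the log2 fold changes were -0.78 and -0.77 (limma adjusted p = 0.0018 and 0.0011). MRPL22 (-0.74), whose bacterial counterpart lines the tunnel through which the new chain leaves, and MRPL37 (-0.72) fell by similar amounts. Smaller falls were those of MRPL27 (-0.64), MRPL11 (-0.64) and MRPL15 (-0.48). MRPL11 lost its call without control A, and MRPL15 lost its call without control A, control B, ETV1 A or ETV1 C. MRPL4 fell with 1 dim probe set of 3 (223742_at, -0.57), a call lost without control A, control B, ETV1 B or ETV1 C, while 218105_s_at and 223743_s_at did not pass, at -0.08 and 0.05 (limma adjusted p = 0.76 and 0.85).

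In the small subunit, MRPS35 (217942_at, chromosome 12) read 899, 877, 872 and 688 on ETV1 arrays, against 1810, 1643 and 1300 on control arrays. The log2 fold change was -0.91 ± 0.15 (limma adjusted p = 0.00032), and no array overlapped. MRPS16 (222499_at, chromosome 10), loss of which causes a respiratory chain deficiency in humans, read 459, 509, 493 and 348 on ETV1 arrays and 1002, 887 and 703 on control arrays, a log2 fold change of -0.91 ± 0.16 (limma adjusted p = 0.00073). Its other probe set (218046_s_at) also fell, by 0.61 on the log2 scale, and lost its call without control A. MRPS14 (203800_s_at, chromosome 1), counterpart of a bacterial protein near the decoding site, read 861, 940, 885 and 870 on ETV1 arrays and 1680, 1528 and 1346 on control arrays (log2 fold change -0.76 ± 0.13, limma adjusted p = 0.00072). Its second probe set fell too, at -0.41, and lost its call without control A, control B, ETV1 A or ETV1 B. MRPS15 had 2 lower probe sets of 4, at -0.64 and -0.58, the second of which lost its call without control A or B. MRPS34 (218112_at, chromosome 16), whose promoter with 3 ETS letter runs was given with the sequences, read 721, 744, 697 and 805 on ETV1 arrays and 1285, 1106 and 958 on control arrays (log2 fold change -0.57, limma adjusted p = 0.0082), and lost its call without control A.

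As deposited, the only small-subunit rise was a probe set of MRPS25 (224015_s_at, chromosome 3). It read 85.1, 124, 99.8 and 112 on ETV1 arrays, against 68.7, 33.2 and 26.4 on control arrays. The control arrays varied widely and lay below all 4 ETV1 arrays. The log2 fold change was 1.10 ± 0.20 (limma adjusted p = 7.0e-04). The other 2 tested MRPS25 probe sets did not pass as deposited, at 0.34 and 0.29 (limma adjusted p = 0.078 and 0.24). After quantile normalization the first of them (224869_s_at) passed as higher (0.37, limma adjusted p = 0.025). MRPS10 then rose with 222522_x_at and 224247_s_at, at 0.51 and 0.54 (limma adjusted p = 0.0033 and 0.0024). Among the 3 relatives of bacterial S18, MRPS18A (218385_at, which sits in the large subunit by structure) and MRPS18B (208907_s_at) fell, at -0.46 and -0.43, and MRPS18C (-0.27, limma adjusted p = 0.25) did not pass. Neither did a second probe set of MRPS18A (221693_s_at, -0.17, limma adjusted p = 0.46) or of MRPS18B (217408_at, -0.18, limma adjusted p = 0.43). Both of the S18 calls were lost without control A or B, and so were those of MRPS28 and MRPS5 (224333_s_at) and of MRPL47 (223480_s_at). The call of MRPS23 was lost without control A or ETV1 D. The calls of MRPS28, MRPS18A, MRPS18B, MRPS5 and MRPL47 were also lost without single ETV1 arrays, those of MRPS18B and MRPS5 without ETV1 C, and those of MRPS28 and MRPS18A also without ERG A. MRPS12, counterpart of the bacterial protein that guards decoding accuracy, had 4 tested probe sets and no call, at -0.38 to 0.27. The antisense gene MRPL20-AS1 was higher, at 22.2, 14.2, 17.8 and 15.9 on ETV1 arrays and 4.46, 9.15 and 13.5 on control arrays (log2 fold change 0.43, limma adjusted p = 0.041). All of these lie near the dim end, and the call was lost without control A, control B, ETV1 A, ETV1 C, ETV1 D or ERG A. MRPL20 did not pass, at -0.20 for its bright probe set.

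**Figure D2:**
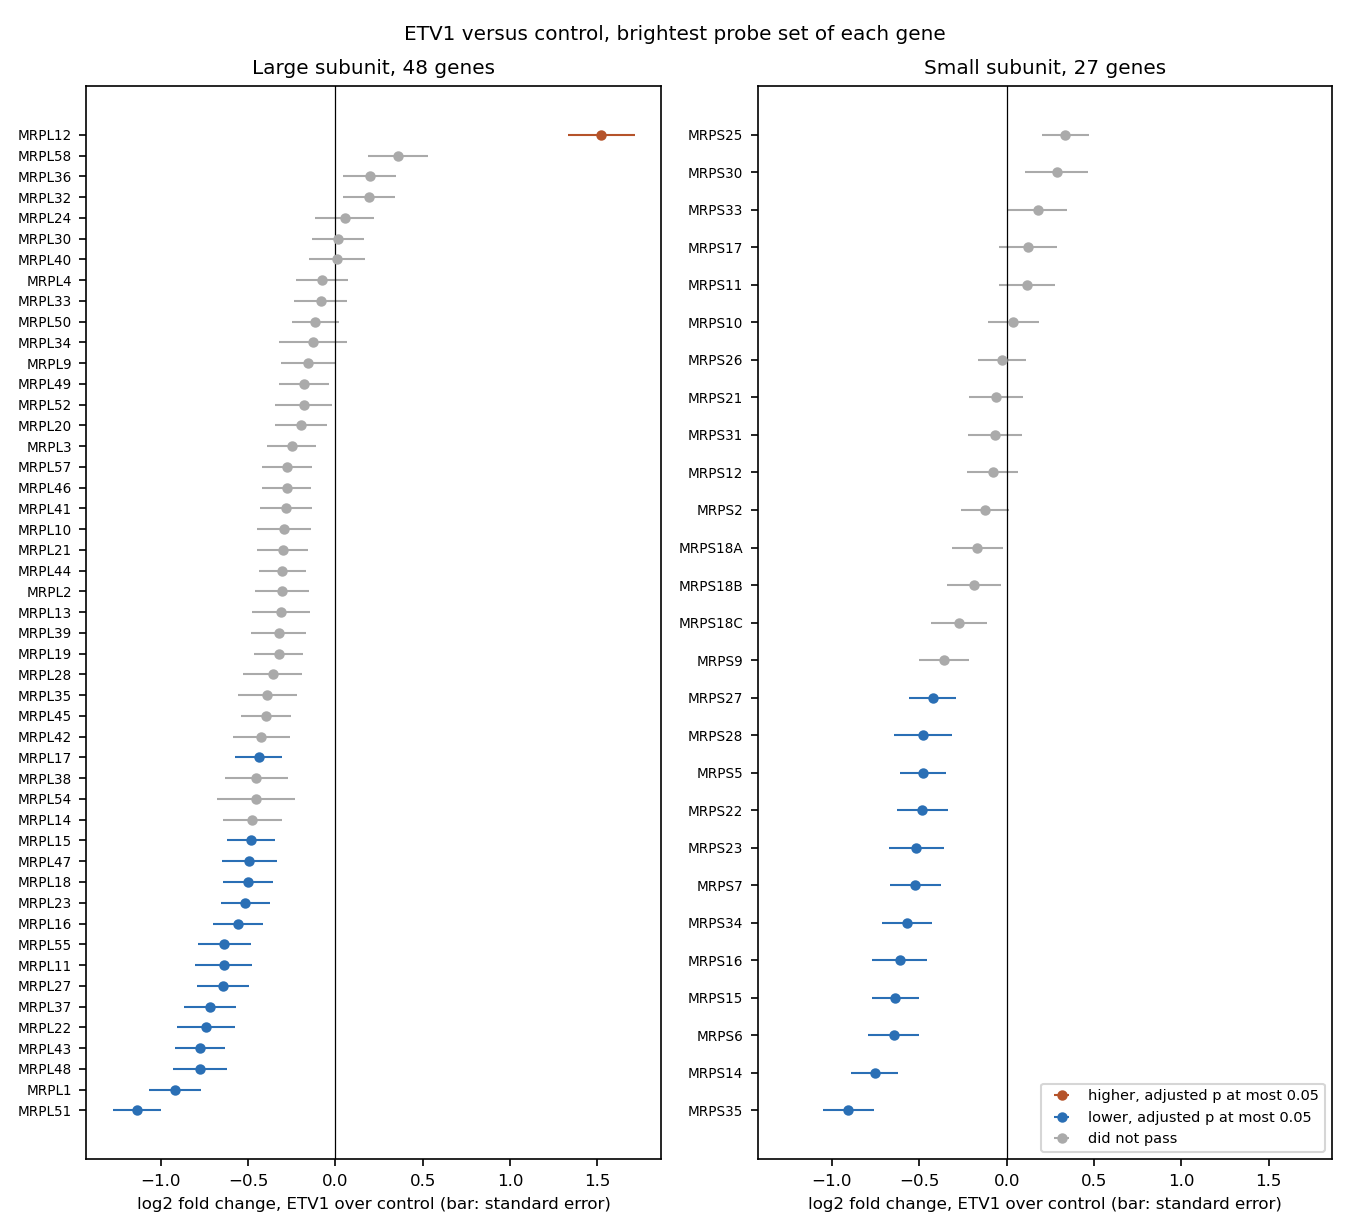
Log2 fold change, ETV1 over control, of the brightest tested probe set of each gene, 48 large-subunit genes and 27 small-subunit genes, with the standard error as bars and colours for passing rises and falls. As deposited and with 1 probe set per gene, 27 genes fell, and MRPL12 at 1.52 is the only rise.

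On the arrays labelled ERG, compared with control, most mitochondrial ribosome probe sets were higher: 98 rose and 15 fell of 131, where 43.3% of all tested probe sets were higher and 35.1% lower. The median log2 fold change was 0.88 in the large and 0.99 in the small subunit, beside 0.17 over all tested probe sets. After quantile normalization 81 rose and 22 fell, 43 and 14 in the large subunit and 37 and 8 in the small. Of all tested probe sets 39.8% were then higher and 36% lower. The medians of the large and small subunit were then 0.35 and 0.57, beside 0.05 over all tested probe sets. After centring each array on its median 108 rose and 8 fell, with medians of 1.29 and 1.39. But that scaling moved the median of all tested probe sets to 0.58, with 56.5% of them higher and 26.3% lower. Relative to the median of all, the large and small subunits stood at 0.70 and 0.81 as deposited, 0.30 and 0.52 after quantile normalization and 0.70 and 0.81 after centring. Of the higher and lower calls, 78 and 12 were shared between the deposited and the quantile-normalized values.

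MRPL12 had the largest rise here too, at 3601, 3539 and 1929 on the arrays labelled ERG, against 200, 218 and 197 on control arrays. The log2 fold change was 3.73 ± 0.20 (limma adjusted p = 2.0e-10), and 3.32 after quantile normalization. MRPL12 was thus higher than control in both comparisons, which share the 3 control arrays. Other bright large-subunit members with high values were MRPL22, at 4875, 5705 and 3890 on arrays labelled ERG and 1912, 1689 and 1339 on control arrays, and MRPL20 (220526_s_at), at 3604, 3900 and 3227 on arrays labelled ERG and 1552, 1252 and 1002 on control arrays. Every array labelled ERG exceeded every control array in both, and the log2 fold changes were 1.54 and 1.5, or 0.91 and 0.88 after quantile normalization. MRPL58 (204868_at), a release factor relative that frees chains from stalled ribosomes, rose by 1.86 on the log2 scale, and by 1.46 after quantile normalization. MRPL51 read 6408, 6769 and 6524 on arrays labelled ERG, against 3736, 3361 and 2923 on control arrays (log2 fold change 0.98, and 0.36 after quantile normalization, limma adjusted p = 1.6e-05 and 0.0063).

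Among small-subunit genes MRPS28 read 2106, 2746 and 1789 on arrays labelled ERG, against 774, 685 and 507 on control arrays (log2 fold change 1.73 ± 0.18, limma adjusted p = 2.0e-07). MRPS23 read 3013, 3484 and 2835 on arrays labelled ERG, against 1162, 862 and 789 on control arrays (log2 fold change 1.73 ± 0.17, limma adjusted p = 1.1e-07). Both remained higher after quantile normalization, at 1.20 and 1.13. MRPS5 (224333_s_at) rose by 1.55, with 2285, 2497 and 2495 on arrays labelled ERG and 906, 870 and 688 on control arrays. MRPS12 (204331_s_at) rose by 1.51, with 2270, 2953 and 2264 on arrays labelled ERG and 914, 888 and 774 on control arrays. No array overlapped in either. MRPS35 was higher as deposited (0.78, limma adjusted p = 0.00025) but did not pass after quantile normalization (0.17, limma adjusted p = 0.17).

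Not every member was higher, and several directions depended on the scaling. MRPL38 (225103_at, chromosome 17) read 507, 449 and 287 on arrays labelled ERG and 1230, 1219 and 954 on control arrays, a log2 fold change of -1.45 ± 0.19 (limma adjusted p = 3.7e-06), and -1.69 after quantile normalization. MRPL37 did not pass as deposited (-0.01, limma adjusted p = 0.95) and was lower after quantile normalization (-0.58, limma adjusted p = 0.0014). The bright MRPL41 probe sets 225425_s_at and 227186_s_at stood at 0.24 and 0.60 as deposited but at -0.37 and -0.01 after quantile normalization. MRPL2 (218887_at) and MRPS18B (208907_s_at) also turned, at 0.18 and 0.12 as deposited and -0.37 and -0.46 after it. MRPL27 passed as higher as deposited (0.36, limma adjusted p = 0.048) and stood at -0.22 after quantile normalization, which did not pass. MRPL41 (221936_x_at) and MRPL55 (227024_s_at), with log2 fold changes of 2.5 and 2.03, passed the filter only through the arrays labelled ERG. MRPL41 read 73.9 to 104 there and 1.43 to 3.54 on control arrays, and MRPL55 read 58.7 to 75 there and 1 to 6.56 on control arrays.

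**Figure D3:**
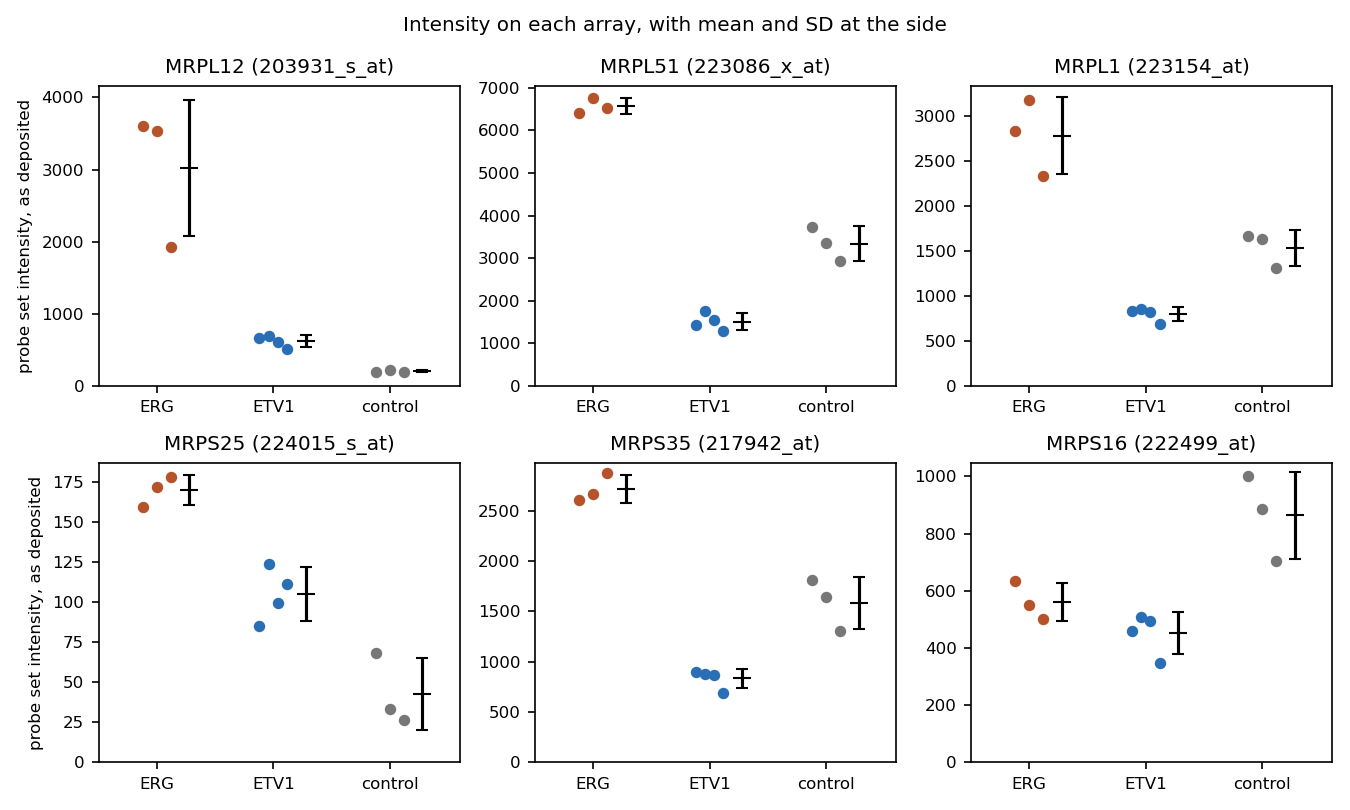
Intensity as deposited (linear axis from 0) of 6 members on each array labelled ERG, each ETV1 array and each control array, with the group mean and SD at the side. MRPL12 and MRPS25 are lowest on control arrays, while MRPL51, MRPL1 and MRPS35 are lowest on ETV1 arrays. MRPS16 (222499_at) is lower than control on ETV1 arrays and on arrays labelled ERG, with no passing difference between those groups.

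Different probe sets of 1 gene often went opposite ways on the arrays labelled ERG. As deposited, this held in 6 large-subunit genes (MRPL20, MRPL30, MRPL35, MRPL47, MRPL50 and MRPL52) and 4 small-subunit genes (MRPS5, MRPS14, MRPS15 and MRPS16). In each, 1 probe set passed as higher and another as lower. After quantile normalization no probe set of MRPL50 or MRPS14 passed, and the others kept opposite calls. MRPL41, MRPL57, MRPS18A and MRPS18B had opposite calls only after quantile normalization. MRPS15 was the clearest case. Its probe set 226296_s_at read 8627, 8768 and 7542 on arrays labelled ERG and 5062, 4327 and 3858 on control arrays, while 223291_at read 63.0, 76.5 and 77.8 on arrays labelled ERG and 489, 464 and 364 on control arrays. The log2 fold changes were 0.92 and -2.36 (limma adjusted p = 2.7e-05 and 7.4e-10). MRPL35 likewise read 3081, 3162 and 2102 on arrays labelled ERG and 1378, 1224 and 981 on control arrays with 218890_x_at. With 225255_at it read 59.8, 62.2 and 36.4 on arrays labelled ERG and 392, 300 and 263 on control arrays. MRPL47 had log2 fold changes of 1.33 (223480_s_at) and -1.77 (223481_s_at). Of the 25 member genes with at least 2 passing probe sets, 15 (60%) had them all in 1 direction, compared with 49.7% of 4989 genes in all. In the ETV1 comparison the share over all genes was 96.0%. The levels of the 10 genes with opposite calls as deposited are therefore not settled by their probe sets on arrays labelled ERG.

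As deposited, bright members were higher more often than dim ones. This split was made after the values were seen. Of the 94 member probe sets with a mean of at least 500 over all arrays, 81 (86.2%) were higher and 2 lower on arrays labelled ERG, with a median of 1.01. Of all tested probe sets that bright, 59.8% were higher and 17.2% lower, with a median of 0.55. Of the 37 dimmer members 17 (45.9%) were higher and 13 (35.1%) lower, with a median of 0.13, beside 35.9% higher and 43.2% lower among all tested probe sets that dim. Among these 17 were the 5 probe sets that passed the filter through 1 group only and so had to differ. After quantile normalization 62 of the 94 bright members were higher and 12 lower, with a median of 0.43. Of all tested probe sets that bright, 36.5% were then higher and 32.3% lower, with a median of 0.05. The dimmer members then had 19 higher, again with those 5 among them, and 10 lower, with a median of 0.32. Among all that dim, 41.3% were higher and 37.7% lower. In the large subunit the bright and dim medians were then 0.38 and 0.21, with 8 of 21 dim members higher and 8 lower. In the small subunit they were 0.57 and 0.59, with 10 of 15 dim members higher and 2 lower.

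**Figure D4:**
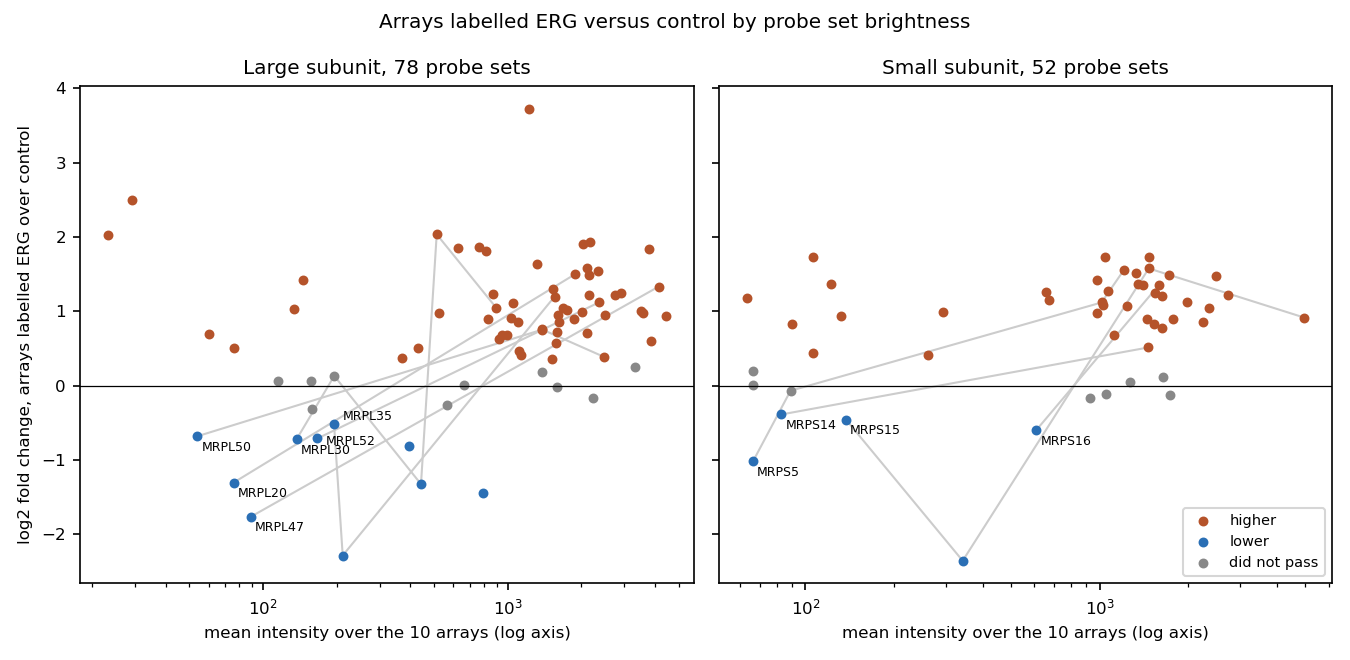
Log2 fold change, arrays labelled ERG over control, of each tested member probe set against its mean intensity over all arrays (log axis), with grey lines joining the probe sets of genes that passed in opposite directions. Under 500, 13 of 37 probe sets (35.1%) were lower, where 43.2% of all tested probe sets that dim were lower. At 500 and above 2 of 94 were lower, where 17.2% of all tested probe sets that bright were lower.

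Set against ETV1 cells, 104 member probe sets were higher and 13 lower on the arrays labelled ERG, where 45.6% of all tested probe sets were higher and 36.5% lower. The median was 1.19 in the large and 1.15 in the small subunit, beside 0.20 over all tested probe sets. After quantile normalization 91 were higher and 17 lower, with medians of 0.61 and 0.70. Of all tested probe sets 42.2% were then higher and 37.9% lower, with a median of 0.07. MRPL22 was highest among the bright members, at 4875, 5705 and 3890 on arrays labelled ERG and 981, 1092, 1011 and 810 on ETV1 arrays (log2 fold change 2.28 ± 0.17, limma adjusted p = 2.7e-09). MRPS23 (2.25), MRPS28 (2.21) and MRPL12 (2.20) followed. MRPS15 (223291_at), at -2.47, and MRPL35 (225255_at), at -1.97, had the lowest values, while bright probe sets of both genes were higher on the arrays labelled ERG. For MRPS14 (203800_s_at) the difference was 1.27 as deposited and 0.61 after quantile normalization. Some did not keep their direction: MRPS18A (221693_s_at) stood at 0.05 as deposited and -0.53 after quantile normalization, and MRPS2 (218001_at) at 0.00 and -0.71.

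Genes that assemble and serve the mitochondrial ribosome were counted from lists by gene. Over all 14116 genes tested, 13.8% had a higher and 18.5% a lower probe set in ETV1 cells against control, and several of the shares below lie near these. In ETV1 cells, of 5 further subunit genes tested 1 fell and none rose: CHCHD1 averaged 1090 in ETV1 cells and 2200 in control (log2 fold change -0.99, limma adjusted p = 0.00022). That list holds the member MRPL58. Of 22 assembly genes, 8 fell and 2 rose. MTG1, a GTPase of large-subunit assembly, had the largest fall at -1.05, and METTL17 fell with 3 probe sets at -0.64 to -0.73, whereas RBFA (0.55) and DHX30 (0.48) rose. Of 15 translation factors 4 fell, such as the elongation factors TUFM (-0.48) and GFM1 (-0.49) and the messenger RNA stabilising protein LRPPRC (-0.60 and -0.88), and MTFMT, which formylates the initiator transfer RNA, rose (0.71). Of 18 genes for mitochondrial transfer RNA synthetases and related enzymes 4 fell and 3 rose, with IARS2 at -0.79 and VARS2 at 0.68. Of 12 genes of mitochondrial DNA transcription and upkeep 2 fell and none rose: TFAM, which packages the mitochondrial genome and starts its transcription, fell with 3 probe sets, at -0.65 to -0.67, and MTERF1 at -0.63. Of 8 regulators of mitochondrial biogenesis, 4 fell and none rose: the ETS factor GABPA (-0.49 with each of 2 probe sets), YY1 (-0.48 and -0.65), ESRRA (-0.61) and PPRC1 (-0.56).

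Respiratory chain subunits, the genes whose mitochondrially encoded partners this ribosome makes, were similar in ETV1 cells, with 5 probe sets higher and 45 (33.8%) lower and a median of -0.28. Cytosolic ribosomal proteins had 4 higher and 6 lower probe sets of 108, with a median of 0.04. After quantile normalization the medians of these lists were -0.15 and 0.01, beside -0.02 over all tested probe sets. The difference between the lists was not tested. On the arrays labelled ERG, respiratory chain subunits had a median of 0.74 and cytosolic ribosomal proteins of 0.53 as deposited, and 0.31 and -0.03 after quantile normalization. Over all tested probe sets the median was 0.17 as deposited and 0.05 after quantile normalization. On the arrays labelled ERG, 58.2% of all genes tested had a higher and 48.6% a lower probe set. Assembly genes there were counted as 15 with a higher and 9 with a lower probe set of 22, 6 of them with both. Among translation factors 13 of 15 had a higher probe set and 1 a lower one, led by MTRF1, SLIRP and MTIF3, at 2.28, 2.15 and 2.08 as deposited and 2.33, 1.65 and 1.53 after quantile normalization.

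Promoter letters and change in ETV1 cells were set side by side for the 67 genes, each by its brightest probe set, as a description. The 28 genes with ETS letters had a median log2 fold change of -0.26, with 10 lower and none higher. The 39 without had a median of -0.32, with 14 lower and MRPL12 higher. The 12 genes with YY1 letters had a median of -0.17, with 1 lower, and the 55 without had -0.36, with 23 lower. The 8 with NRF1 letters stood at -0.32, with 1 lower. On the arrays labelled ERG the medians were 1.05 with and 0.98 without ETS letters.

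Several member genes lie head to head with a neighbour on the opposite strand. Of the 67, 18 (26.9%) had such a neighbour with a start within 1000 bases, compared with 10.5% of all protein-coding genes. MRPL46 and MRPS11, of different subunits, face each other at 320 bases, and MRPS12 faces SARS2, the mitochondrial seryl-tRNA synthetase, at 181 bases. MRPL51 faces NCAPD2, a condensin subunit, at 840 bases. NCAPD2 averaged 221 in ETV1 cells and 451 in control, a log2 fold change of -0.98 (limma adjusted p = 5.0e-05), beside the -1.14 of MRPL51. The facing pair did not always move together: MRPL27 fell (-0.64) while EME1, which faces it at 45 bases, did not pass (0.28 and 0.03). MRPS27 (212145_at) fell by 0.42 on the log2 scale (limma adjusted p = 0.029), while PTCD2, which faces it, rose with 1 probe set (0.58, limma adjusted p = 0.0083) and did not pass with the other (0.11, limma adjusted p = 0.80). The MRPS27 call was lost without control A, control B, ETV1 A, ETV1 C or ETV1 D. MRPL46, MRPS12 and SARS2 had no call. MRPS11, which faces MRPL46, had 1 lower probe set of 2. That dim probe set (215919_s_at) stood at -0.76 after quantile normalization (limma adjusted p = 0.0016). The other (211595_s_at) did not pass as deposited, at 0.12 (limma adjusted p = 0.66).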

How the data were processed

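Expression was measured with Affymetrix HG-U133 Plus 2.0 arrays of total RNA from RWPE-1 cells. The authors deposited 1 linear intensity per probe set and array, with a floor of 1. The labels give Trizol extraction and standard biotin-labelled cRNA. The probe summary and array normalisation steps are not given in the sources used. The files give no depth, so the number of arrays (3, 4 and 3) limits the precision.

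Intensities were used as deposited, as log2(intensity + 16). Gene names come from the platform annotation, updated through RefSeq, which changed no member symbol. Of 54675 probe sets, 41091 name 1 gene, 1801 several and 11721 none, and 4 that name a member with another gene were left out. Probe sets above their array's median on at least 3 arrays were tested (25969), with limma (lmFit and eBayes) as 1 two-sided model of all 3 groups (7 residual degrees of freedom), Benjamini-Hochberg adjusted over all of them, at 0.05. Alternatives were quantile normalization, median centring, other filters, pseudocounts of 1 and 64, 1 value per gene, only probe sets without suffix marks, array weights, trend and robust fitting, the 2 groups alone, a replicate block, an adjusted p of 0.01, and each array left out in turn. The script was tested on simulated data.

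Members, lists and tests were chosen with earlier results of these data known. Members named in the text are the 4 largest rises and falls per comparison and subunit whose arrays do not overlap, genes with opposite calls, and listed genes of interest. Others, among them MRPL4, MRPL11, MRPL15, MRPL27, MRPL37, MRPL46, MRPS2, MRPS27, MRPS34, RBFA, DHX30, SARS2, PTCD2, EME1 and NCAPD2, were named after their values were seen. MRPL32, MRPL36 and MRPS10 were also named after their values were seen. Letters on arrays did not pair the samples. MRPS30 and MRPS18A, in the large subunit by structure, were counted by symbol, with counting by structure as an alternative. Silencing in LNCaP and VCaP cells was not analysed here. Fits ran in R 4.3.3 with limma 3.58.1, promoter searches in Python 3.11.15 with pandas 2.3.3, and plots in matplotlib 3.10.9.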

Additional observations from a re-analysis of the deposited data

Results flagged for a closer look

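In 11 of the 131 tested member probe sets, 1 of the 4 ETV1 arrays lay far from the others, and chance alone flags about 1 in 20 such groups. ETV1 D was that array in 8. It was the lowest ETV1 array for MRPS35 (217942_at, 688.44, against 872.18 to 898.81 on the other ETV1 arrays) and MRPL35 (218890_x_at, 742.6, against 946.72 to 967.09). It was also lowest for MRPL43 (230027_s_at, 449.92, against 548.03 to 553), MRPL58 (204868_at, 437.81, against 520.18 to 529.64) and MRPS7 (217932_at, 890.97, against 1008.56 to 1020.16). It was the highest for MRPL34 (221692_s_at, 1984.18, against 1225.91 to 1329.34), MRPL14 (225201_s_at, 1279.18, against 1091.8 to 1121.83) and MRPL44 (218202_x_at, 355.16, against 313.2 to 320.34). ETV1 A was lowest for MRPL41 (225423_x_at, 40.61, against 48.39 to 49.74) and MRPS25 (224869_s_at, 234.9, against 269.39 to 271.66), and ETV1 B for another MRPS25 probe set (224873_s_at, 37.4, against 53.25 to 54.85). The fall of MRPS35 was -0.91 with all arrays, and its range over left-out arrays was -1.04 to -0.81.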

How the results depend on the processing

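Leaving out 1 array at a time gave 3 to 7 higher and 14 to 52 lower members in ETV1 cells, with medians of -0.37 to -0.17 (large) and -0.31 to -0.18 (small). On arrays labelled ERG against control it gave 93 to 98 higher and 14 to 16 lower, with medians of 0.75 to 0.99 and 0.89 to 1.06. Against ETV1 it gave 103 to 104 and 12 to 14, with 1.15 to 1.24 and 1.03 to 1.20. ETV1 against control had 10 higher under quantile normalization, 2 with the brightest probe set per gene, 1 without suffix marks and 21 with array weights. It had 86 lower with array weights, 15 without suffix marks, 25 without a filter, 25 with the replicate block (whose letters did not pair the arrays) and 17 at a threshold of 0.01. A 75th percentile filter gave a small-subunit median of -0.37. Arrays labelled ERG against control had 6 lower under the 75th percentile filter, 1 with the brightest probe set, 2 with the mean per gene (61 higher), 8 under median centring and 6 without suffix marks (31 higher). Their medians were 0.35 and 0.57 under quantile normalization, 1.29 and 1.39 under median centring, and 0.68 for the small subunit without suffix marks. Against ETV1 there were 6 lower under the 75th percentile filter, 1 with the brightest probe set, 1 with the mean per gene (65 higher) and 4 without suffix marks (36 higher). Those medians were 0.61 and 0.70 under quantile normalization, 1.62 and 1.58 under median centring, 1.34 and 1.29 under the 75th percentile filter, 1.40 and 1.31 with the brightest probe set, 1.03 and 0.75 without suffix marks, and for the small subunit 1.0 with the mean per gene and 0.97 at pseudocount 64. Fewer probe sets enter under the filters and the values per gene, and other causes were not tested. Over all 131 tested members, direction turned under quantile normalization in probe sets, called under at least 1 of the 2 settings, as follows. For arrays labelled ERG against control these were MRPL2 (-0.37), MRPL9 (-0.015), MRPL27 (-0.22), MRPL41 (-0.37 and -0.0090), MRPL45 (-0.057), MRPL48 (-0.13), MRPL50 (-0.23), MRPS7 (-0.49), MRPS14 (-0.071 and 0.015) and MRPS18B (-0.46). Against ETV1 they were MRPL2 (-0.18), MRPL41 (-0.26), MRPL50 (-0.29), MRPS2 (-0.71), MRPS7 (-0.070), MRPS10 (-0.18 and -0.0037), MRPS18A (-0.53), MRPS18B (-0.16), MRPS33 (-0.068) and MRPS34 (-0.11). Under median centring they were MRPL37 (0.40) and MRPS14 (0.020), and against ETV1 MRPL4 (0.39) and MRPL57 (0.066). Array weights turned MRPL19 (238448_at, -0.15) against control. Of the values of members under settings other than leaving out an array, 4297 kept direction and side of the threshold, 123 lost a call, 166 gained one and 28 turned.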
